A study of Mus musculus with 12 samples.

Results

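Elastic fibre and microfibril genes were followed in fetal membranes, which surround the fetus in the uterus, of mice lacking biglycan and decorin. The 10 genes encode elastin (Eln), the fibrillins (Fbn1, Fbn2), the microfibril-associated glycoproteins (Mfap2, Mfap5), 4 fibulins (Fbln1, Fbln2, Fbln5 and Efemp2, which encodes fibulin-4) and EMILIN-1 (Emilin1). They were listed by gene symbol, with earlier results of these data known, and all 10 were found among the 48795 genes of the count table, each under 1 gene ID. RNA sequencing gave 12 libraries in 4 groups of 3. The double knockout (DKO) groups at embryonic day 12 (E12) and embryonic day 18 (E18) lacked both Bgn and Dcn on a background given as C3H and C57BL/6, and the wild-type (WT) groups at E12 and E18 were C3H. Strain and genotype therefore cannot be told apart. The labels do not say whether replicates are separate animals or litters, so p-values measure the spread between these samples, which may be technical.

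Elastic fibres give soft tissues their recoil. Tropoelastin, the product of Eln, is deposited on a scaffold of fibrillin microfibrils, is brought there by fibulin-4 and fibulin-5, and is crosslinked by lysyl oxidases, while microfibrils also hold latent TGF-beta through the latent TGF-beta binding proteins. Biglycan and decorin are small proteoglycans of collagen-rich matrix that can also bind tropoelastin or microfibril proteins in vitro. Amnion and yolk sac mesenchyme deposit this matrix beneath their epithelia, and vascular smooth muscle is a well-known source of elastin.

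Total counts were 19967593 to 33065424 per library. Bgn had 14.3 to 25.1 CPM in the 6 DKO libraries and 223 to 686 CPM in the 6 WT libraries, and Dcn had 4.67 to 8.44 CPM in DKO and 198 to 978 CPM in WT (CPM, counts per 1000000 of TMM-normalised library size). Embryonic forms of beta-globin, which give way to adult forms during gestation, took 1.33% to 2.67% of all beta-globin in E18 DKO, but 74.8% to 87.8% in the E18-labelled WT libraries. That share was 82.4% to 85.0% in E12 DKO, and 14.9%, 95.1% and 97.0% in E12 WT 1, 2 and 3, so the E18-labelled WT libraries stood apart from E18 DKO, and E12 WT 1 from the other E12 libraries. Library 3 labelled E18 WT also had a summed level of 904 CPM over 8 trophoblast and decidual markers, against 1.10 to 74.6 CPM in the other 11. Mitochondrial transcripts took 21.2% of all counts in E12 WT 3, against 3.58% to 7.78% in the other 11. Transcripts of the visceral yolk sac endoderm were abundant throughout, with Afp at 39240 to 107500 CPM, and 9 markers of amnion-type epithelium summed to 2030 to 6869 CPM. The part of these features in the results was not tested. In whole-tissue RNA, fewer cells of a type and less RNA per cell cannot be told apart.

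Levels are first set against each other per length, as RPKM (TMM CPM per kilobase of exonic length). In E12 DKO, Mfap2 led with 44.2 ± 3.16 RPKM, ahead of Emilin1 at 38.6 ± 2.42, Fbln1 at 31.0 ± 2.41 and Efemp2 at 20.2 ± 0.127 RPKM (SD, n = 3 libraries). The ranges of these 4 genes and of Fbn1 (10.3 ± 0.842 RPKM) and Fbn2 (4.72 ± 1.33 RPKM) did not overlap. Fbln2, Fbln5 and Eln followed at 3.04, 2.73 and 2.65 RPKM with overlapping ranges, and Mfap5 was last at 0.0792 RPKM. Mfap2 was also first in the E18-labelled WT libraries, with 76.7 ± 31.8 RPKM, ahead of Emilin1 at 47.2 ± 6.03 RPKM without overlap. In E12 WT, Mfap2 had the highest mean, 74.8 ± 52.5 RPKM, but its range overlapped that of Fbln1 (31.3 ± 14.2 RPKM).

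E18 DKO membranes had another order. Eln had the highest mean, 53.8 ± 35.4 RPKM, although its range of 15.8 to 85.7 overlapped those of Emilin1 (25.2 ± 1.59 RPKM) and Mfap2 (21.8 ± 7.11 RPKM). Fbln2 came next at 15.4 ± 0.554 RPKM, with a range of 14.8 to 15.9 that overlapped those of Mfap2 and Eln. Efemp2, Fbn1 and Fbln5 overlapped at means of 11.8, 10.8 and 10.5 RPKM. Fbln1 followed at 3.69 ± 1.61 RPKM, its range overlapping those of Fbln5 and Mfap5. Mfap5 and Fbn2 came last, with overlapping ranges and means of 1.61 and 1.04 RPKM. As a share of the summed RPKM of the 10 genes, Eln took 15.3% to 41.3% in E18 DKO, against 1.13% to 2.35% in E12 DKO. It took 0.518% to 4.52% in the E18-labelled WT libraries. In E12 WT the share was 22.6% in replicate 1 and as low as 0.988% in another replicate.

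**Figure D1:**
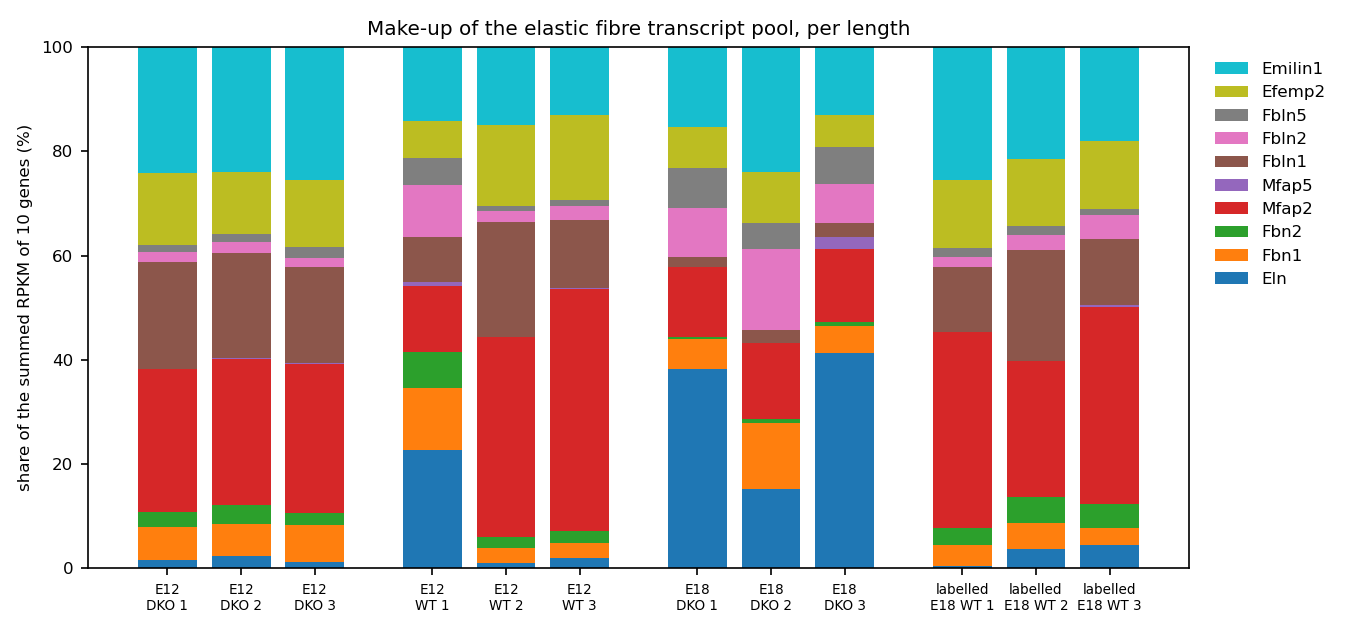
Stacked bars give each gene's share (%) of the summed RPKM of the 10 genes, 1 bar per library. The Eln block covers 15.3% to 41.3% of E18 DKO bars and 22.6% of E12 WT 1, and at most 4.52% of the other bars.

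Differences between groups were tested on counts with the quasi-likelihood test of edgeR, and p-values were adjusted by Benjamini-Hochberg over 18153 tested genes, which included all 10. A gene is called at an adjusted p under 0.05. In E18 DKO, Fbln5 was higher and Fbn2, Fbln1, Efemp2, Mfap2 and Emilin1 were lower than in the E18-labelled WT libraries. Thus 1 of 10 was called higher, where 20.5% of all tested genes were called higher, and 5 of 10 lower, where 21.8% were. Without overlap between the groups, 3 of 10 were higher, where 27.8% of all genes were, and 5 lower, where 29.1% were. Between stages in DKO, Eln, Fbln2 and Fbln5 were higher at E18 than at E12 and Fbn2, Fbln1 and Emilin1 were lower, 3 of 10 each way, where 23.2% of all genes were called higher and 22.8% lower. Here 3 were higher and 5 lower without overlap, where 33.1% and 34.1% of all genes were. Both comparisons use the same E18 DKO libraries.

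At E12, 0 of 10 were called between DKO and WT by edgeR's quasi-likelihood test, where 0.353% of all genes were called in either direction. Here 2 of 10 had an unadjusted p under 0.05, as had 24.3% of all genes. The DESeq2 Wald test called 1 lower, Fbln2, where it called 4.1% of all genes higher and 7.38% lower. Without overlap, 0 were higher and 1, Fbln2, was lower, where 15.7% and 14.4% of all genes were. Between the E18-labelled WT libraries and E12 WT 0 of 10 were called, where 0.953% of all genes were, with 1 at an unadjusted p under 0.05 (18.1% of all genes). DESeq2 called 1, Emilin1, where it called 1223 of all 18153 genes. Emilin1 alone was higher without overlap, 1 of 10 where 9.29% of all genes were. The median log2 fold change of the 10 genes was -0.73 at E12 and -0.32 at E18 for DKO against WT, beside -0.077 and -0.044 over all tested genes. For E18 against E12 it was -0.27 in DKO, beside -0.016 over all tested genes.

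**Figure D2:**
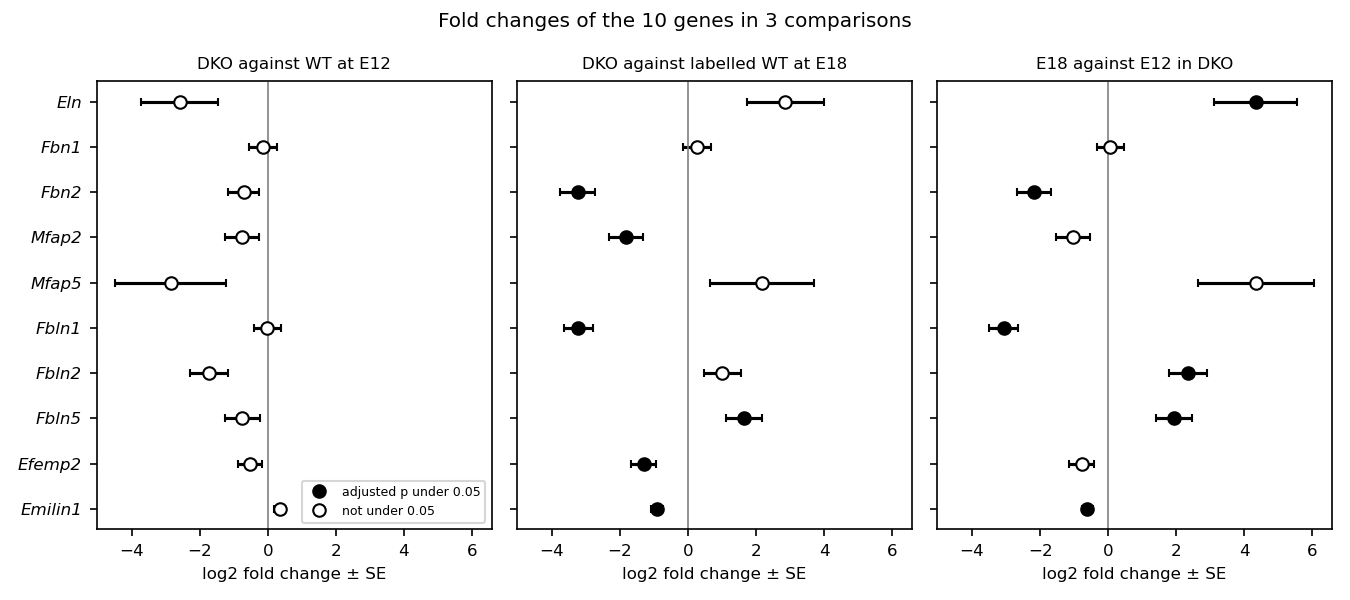
Log2 fold change (x axis) with its standard error from the edgeR fit for the 10 genes (rows) in 3 comparisons. Filled points have an adjusted p under 0.05: 0 genes at E12, 6 at E18 and 6 between stages in DKO.

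Eln, the gene for tropoelastin (GRCm38 chromosome 5, 134702593 to 134747323, minus strand, 8098 exonic bases), had its highest mean in E18 DKO. It had 485, 128 and 694 CPM in E18 DKO, against 6.97, 63.1 and 109 CPM in the E18-labelled WT libraries. At E12 it had 18.0, 32.0 and 14.3 CPM in DKO, against 327, 15.4 and 44.4 CPM in WT. Every E18 DKO library was above every labelled E18 WT and E12 DKO library, while E12 WT spread from the level of E12 DKO, in replicate 2, to that of E18 DKO, in replicate 1.

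Within DKO, Eln was higher at E18 by 4.34 ± 1.22 on the log2 scale (SE, adjusted p = 0.0137, edgeR). That call ended without E12 DKO 1 (adjusted p = 0.0519) or without E12 DKO 3 (adjusted p = 0.0541). Against the E18-labelled WT libraries the log2 fold change was 2.86 ± 1.14, with an adjusted p of 0.0631 that missed the threshold. It passed without E12 WT 1 (adjusted p = 0.0192) or E12 WT 2 (adjusted p = 0.0394), and by DESeq2 (adjusted p = 0.0272). The E12 WT libraries enter that comparison only through the shared fit. Over all fits with 1 library left out, its log2 fold change was 2.33 to 3.63 and its adjusted p reached 0.154 (edgeR). At E12 the log2 fold change was -2.59 ± 1.13 (adjusted p = 0.191), and -0.47 without E12 WT 1.

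Of 7 smooth muscle markers, 5 had a positive and 2 a negative log2 fold change in E18 DKO against the E18-labelled WT libraries. Myh11, a smooth muscle myosin heavy chain, had 112, 41.4 and 172 CPM in E18 DKO, against 8.22, 43.9 and 47.6 CPM in the E18-labelled WT libraries, and 36.6, 23.7 and 16.6 CPM in E12 DKO, against 92.7, 10.2 and 29.3 CPM in E12 WT. Myocd, a transcriptional coactivator of smooth muscle genes, was on the other side, with 1.37, 1.53 and 1.80 CPM in E18 DKO, against 1.66, 5.54 and 7.71 CPM in the E18-labelled WT libraries. The 7 markers summed to 639 to 1167 CPM in E18 DKO, against 344 to 694 CPM in the E18-labelled WT libraries, overlapping ranges. Of the 7, 1 was called higher and 0 lower at E18, where 20.5% of all tested genes were called higher and 21.8% lower. In any library 0 of these markers were at 0. Their part in the Eln result was not tested.

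**Figure D3:**
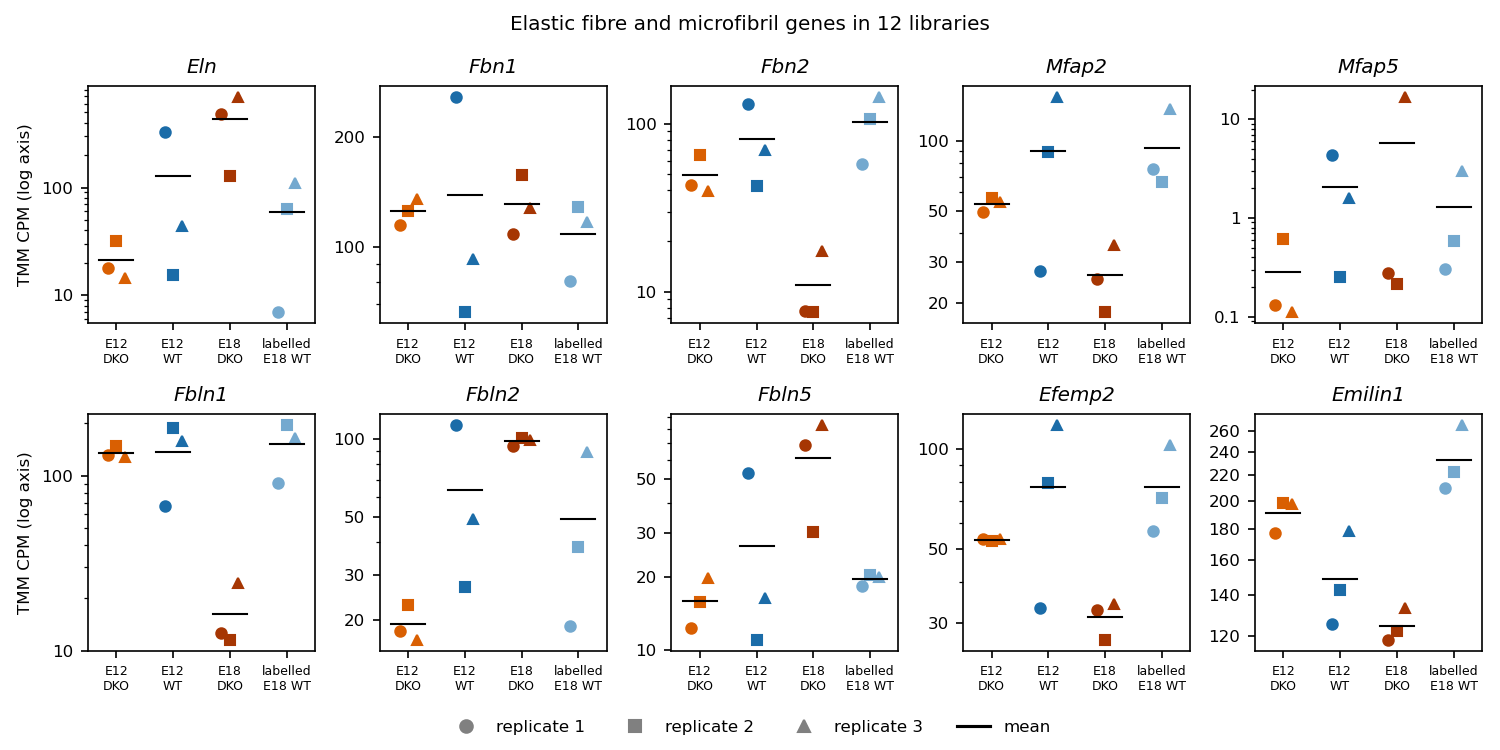
TMM CPM (log axis, a separate scale for each panel) of the 10 genes in 12 libraries, with symbols for replicates and bars for group means. Fbn2, Fbln1, Efemp2, Mfap2 and Emilin1 lie lower in every E18 DKO library than in every library labelled E18 WT, and Eln, Fbln2 and Fbln5 lie higher.

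Of the fibrillins, the building blocks of microfibrils, Fbn2 was called at E18 and Fbn1 was not. Fbn2 (chromosome 18, 58008623 to 58209926, minus strand, 10480 exonic bases) encodes fibrillin-2, which is made mainly during fetal life. It had 7.70, 7.55 and 17.5 CPM in E18 DKO, against 57.1, 107 and 144 CPM in the E18-labelled WT libraries, and 43.2, 65.5 and 39.8 CPM in E12 DKO, against 131, 42.6 and 69.4 CPM in E12 WT. The 3 E18 DKO libraries were the lowest of all 12. Fbn2 fell by 3.23 ± 0.51 on the log2 scale relative to the E18-labelled WT libraries (adjusted p = 0.00079) and by 2.18 ± 0.49 relative to E12 DKO (adjusted p = 0.00455).

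Fbn1 (chromosome 2, 125300594 to 125507993, minus strand, 12128 exonic bases) encodes fibrillin-1, which persists into adult tissue. It had 108, 158 and 128 CPM in E18 DKO, against 80.8, 128 and 117 CPM in the E18-labelled WT libraries. In E12 DKO it had 115, 125 and 136 CPM, against 258, 66.2 and 92.7 CPM in E12 WT. The groups overlapped in each pair. The log2 fold changes of DKO against WT were 0.27 ± 0.41 at E18 (adjusted p = 0.617) and -0.15 ± 0.41 at E12 (adjusted p = 0.851), and both signs turned when counts were scaled by library size alone. Counting was by strand, and 0 annotated genes on the same strand overlapped any of the 10 genes.

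Mfap2 (chromosome 4, 141010418 to 141015984, plus strand, 1211 exonic bases) encodes MAGP-1, a small glycoprotein that binds fibrillin. It had 25.5, 18.2 and 35.4 CPM in E18 DKO, against 75.3, 66.3 and 137 CPM in the E18-labelled WT libraries. At E12 it had 49.3, 56.8 and 54.5 CPM in DKO, against 27.5, 89.8 and 155 CPM in WT. E18 DKO lay below labelled E18 WT and E12 DKO without overlap, and E12 WT spread around E12 DKO on both sides. Mfap2 fell by 1.82 ± 0.51 on the log2 scale relative to the E18-labelled WT libraries (adjusted p = 0.0148), a call that ended without E18 DKO 2 (adjusted p = 0.0551) or library 3 labelled E18 WT (adjusted p = 0.0555). Relative to E12 DKO the log2 fold change was -1.02 ± 0.50 (adjusted p = 0.115).

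Mfap5 (chromosome 6, 122505845 to 122529290, plus strand, 3589 exonic bases) encodes the related MAGP-2 and was rare. Counts were 5, 5 and 310 in E18 DKO, against 8, 20 and 72 in the E18-labelled WT libraries, and 4, 18 and 4 in E12 DKO, against 99, 7 and 27 in E12 WT. A single library, E18 DKO 3, held most of the counts of its group. The log2 fold change at E18 was 2.18 ± 1.52 (adjusted p = 0.268) and -2.37 without that library.

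The fibulins are calcium-binding glycoproteins that link elastin, microfibrils and basement membranes. Fbln1 (chromosome 15, 85205949 to 85286535, plus strand, 4368 exonic bases) encodes fibulin-1, found in elastic fibres and basement membranes. It had 12.6, 11.5 and 24.2 CPM in E18 DKO, against 91.1, 196 and 165 CPM in the E18-labelled WT libraries, and 132, 147 and 127 CPM in E12 DKO, against 67.3, 186 and 157 CPM in E12 WT. Only E18 DKO was low, without overlap with any other group. Fbln1 fell by 3.22 ± 0.43 relative to the E18-labelled WT libraries (adjusted p = 0.000363) and by 3.07 ± 0.43 relative to E12 DKO (adjusted p = 0.000349), both log2. Leaving out any 1 library kept both calls, with adjusted p of at most 0.00288 and 0.00271.

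Fbln2 (chromosome 6, 91212455 to 91272540, plus strand, 6370 exonic bases) encodes fibulin-2, which binds tropoelastin and fibrillin-1. It had 94.4, 101 and 99.4 CPM in E18 DKO, against 19.1, 38.5 and 89.7 CPM in the E18-labelled WT libraries. In E12 DKO it had 18.2, 23.0 and 16.8 CPM, against 114, 27.0 and 49.4 CPM in E12 WT. E18 DKO lay above labelled E18 WT without overlap but close to its library 3, and E12 DKO lay below E12 WT without overlap. Within DKO, Fbln2 was higher at E18 by 2.35 ± 0.57 on the log2 scale (adjusted p = 0.00646). The genotype differences, 1.00 ± 0.54 at E18 (adjusted p = 0.158) and -1.72 ± 0.56 at E12 (adjusted p = 0.113), missed the threshold, and the E18 one passed without library 3 labelled E18 WT (log2 1.77, adjusted p = 0.0252).

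Fbln5 (chromosome 12, 101746565 to 101819055, minus strand, 5829 exonic bases) encodes fibulin-5, which brings tropoelastin to microfibrils. It had 69.2, 30.3 and 83.5 CPM in E18 DKO, against 18.2, 20.3 and 19.9 CPM in the E18-labelled WT libraries, and 12.3, 15.8 and 19.7 CPM in E12 DKO, against 52.9, 11.0 and 16.4 CPM in E12 WT. E18 DKO was above labelled E18 WT and E12 DKO without overlap, and E12 WT 1 stood apart from the other E12 libraries. Fbln5 was higher by 1.64 ± 0.52 than in the E18-labelled WT libraries (adjusted p = 0.0264) and by 1.94 ± 0.53 than in E12 DKO (adjusted p = 0.012), both log2. The first call ended without E18 DKO 1 or 3 or any 1 of the E18-labelled WT libraries, with adjusted p of 0.0649 to 0.0872, and the second without E12 DKO 1 (adjusted p = 0.05004).

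Efemp2 (chromosome 19, 5473973 to 5481853, plus strand, 2648 exonic bases) encodes fibulin-4, which joins lysyl oxidase to tropoelastin. It had 33.0, 26.7 and 34.3 CPM in E18 DKO, against 56.8, 71.3 and 103 CPM in the E18-labelled WT libraries, and 53.7, 53.2 and 53.7 CPM in E12 DKO, against 33.3, 78.9 and 119 CPM in E12 WT. E18 DKO was below labelled E18 WT and E12 DKO without overlap. Efemp2 fell by 1.30 ± 0.37 on the log2 scale relative to the E18-labelled WT libraries (adjusted p = 0.0161), a call that ended without E18 DKO 2 (adjusted p = 0.0549) or library 3 labelled E18 WT (adjusted p = 0.0597). Relative to E12 DKO the log2 fold change was -0.77 ± 0.37 (adjusted p = 0.105).

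Stretches upstream of 3 fibulin genes are shown because these genes were called at E18 and did not all move the same way, with Fbln5 higher and Fbln1 and Efemp2 lower. Each is the 250 bases before the RefSeq start (GRCm38.p6), 5′ to 3′ on the gene's strand. Capitals mark the GC box (GGGCGG, or CCGCCC on the other strand) and the CCAAT box (CCAAT or ATTGG), and the TATA box (TATAAA or TTTATA) was also searched. The windows are chr15:85205699-85205948 on the plus strand for Fbln1, chr12:101819120-101819369 on the minus strand for Fbln5 and chr19:5473696-5473945 on the plus strand for Efemp2.
Fbln1: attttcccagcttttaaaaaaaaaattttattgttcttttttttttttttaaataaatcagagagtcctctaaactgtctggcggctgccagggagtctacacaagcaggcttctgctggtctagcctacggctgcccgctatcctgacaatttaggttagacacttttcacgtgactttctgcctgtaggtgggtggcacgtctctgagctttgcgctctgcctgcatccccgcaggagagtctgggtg
Fbln5: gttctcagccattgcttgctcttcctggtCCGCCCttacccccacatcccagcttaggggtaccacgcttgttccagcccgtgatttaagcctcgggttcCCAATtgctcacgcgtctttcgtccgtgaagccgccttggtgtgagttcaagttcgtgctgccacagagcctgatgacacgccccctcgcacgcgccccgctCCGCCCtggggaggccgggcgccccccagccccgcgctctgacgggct
Efemp2: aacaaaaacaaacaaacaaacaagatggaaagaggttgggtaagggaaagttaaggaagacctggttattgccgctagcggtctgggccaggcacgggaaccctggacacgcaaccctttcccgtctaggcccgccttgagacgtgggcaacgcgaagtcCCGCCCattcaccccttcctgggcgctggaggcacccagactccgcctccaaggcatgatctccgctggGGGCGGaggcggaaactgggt
The Fbln5 window held 2 GC boxes and 1 CCAAT box, with 65.2% GC and 21 CpG. The Efemp2 window held 2 GC boxes, with 59.2% GC and 15 CpG. In the Fbln1 window 0 matches were found, with 46.4% GC and 7 CpG. Of all 32536 such windows, 33% held a GC box, 33.8% a CCAAT box and 12.3% a TATA box, and the medians were 52.4% GC and 6 CpG. A match is a description of letters, not a binding site, and matches did not overlap each other. RefSeq windows were found for 7 of the 10 genes.

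Emilin1 (chromosome 5, 30913402 to 30921277, plus strand, 4937 exonic bases) encodes EMILIN-1, which sits between the elastin core and its microfibrils. It had 118, 122 and 133 CPM in E18 DKO, against 210, 223 and 266 CPM in the E18-labelled WT libraries, and 177, 198 and 197 CPM in E12 DKO, against 126, 143 and 178 CPM in E12 WT. E18 DKO was below both labelled E18 WT and E12 DKO, and the E18-labelled WT libraries were above those of E12 WT, all without overlap. Emilin1 fell by 0.90 ± 0.17 relative to the E18-labelled WT libraries (adjusted p = 0.00179) and by 0.61 ± 0.17 relative to E12 DKO (adjusted p = 0.0117), both log2. Between the E18-labelled WT libraries and E12 WT the log2 fold change was 0.64 ± 0.17 (adjusted p = 0.0959).

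Markers of matrix-making cells were split at E18. The 8 mesenchymal markers summed to 3457 to 6247 CPM in E18 DKO, against 13629 to 29816 CPM in the E18-labelled WT libraries. Of the 8, 2 were called higher and 4 lower, where 20.5% of all tested genes were called higher and 21.8% lower. Vim, for the intermediate filament protein vimentin, had 1475, 819 and 1496 CPM in E18 DKO, against 319, 331 and 574 CPM in the E18-labelled WT libraries. Pdgfrb, a receptor of platelet-derived growth factor, had 124, 102 and 111 CPM in E18 DKO, against 65.0, 72.7 and 91.3 CPM in the E18-labelled WT libraries. Both were higher without overlap, and were picked with their values known. They do not stand for the list, in which 4 of 8, not named here, were lower without overlap. The 8 cartilage markers summed to 8.66 to 11.5 CPM in E18 DKO, against 476 to 1186 CPM in the E18-labelled WT libraries. Of 7 tested, 1 was called higher and 6 lower, beside the same 20.5% and 21.8% of all tested genes. Of the mesenchymal markers 0 were at 0 in any library, and 0 cartilage markers were at 0 in every library of a group. Their part in the falls of Fbn2, Fbln1, Efemp2, Mfap2 and Emilin1 was not tested.

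Taking E12 WT 1 out of the fit changed the E12 comparison. Efemp2 and Mfap2 were then lower in DKO than in WT, by log2 fold changes of -0.88 (adjusted p = 0.0339) and -1.19 (adjusted p = 0.0399). That made 2 of 10 called lower and 0 higher, where 10.2% of all genes were called lower and 6.93% higher. The WT side then rested on E12 WT 2 and 3 alone. E12 WT 3, with 21.2% mitochondrial counts, had the highest Efemp2 (119 CPM) and Mfap2 (155 CPM) of the 12 libraries. Its part in these calls was not tested. The signs of Fbn1 (0.66) and Fbln5 (0.23) turned. Between stages in DKO, Efemp2 and Mfap2 were then also called lower at E18 (adjusted p = 0.0126 and 0.0189) and Mfap5 higher (log2 4.34, adjusted p = 0.0461). The share of all genes called there in that fit is not given. In the main fit it was 23.2% higher and 22.8% lower. The Mfap5 value turned to -0.21 (adjusted p = 0.918) when E18 DKO 3 was the library left out.

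In a comparison added with the values known, E12 DKO was set against the E18-labelled WT libraries, whose beta-globin shares were alike. By edgeR's quasi-likelihood test 0 of 10 genes were called there, where 0.187% of all genes were, with 2 of 10 at an unadjusted p under 0.05 (9.13% of all genes). DESeq2 called 0 of 10, where it called 247 of all 18153 genes. Efemp2, Mfap2 and Emilin1 were lower in every E12 DKO library than in every library labelled E18 WT, 3 of 10 where 14.5% of all genes were lower without overlap.

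The genotype effect at E18 minus that at E12 was tested in the same fit. It was called for 6 of 10 genes, 3 positive and 3 negative, where 21.6% of all genes were called positive and 20.3% negative. The positive ones were Eln (5.45 ± 1.61, adjusted p = 0.0191), Fbln2 (2.72 ± 0.78, adjusted p = 0.0167) and Fbln5 (2.39 ± 0.74, adjusted p = 0.0229). The negative ones were Fbln1 (-3.21 ± 0.58, adjusted p = 0.00164), Fbn2 (-2.52 ± 0.67, adjusted p = 0.0122) and Emilin1 (-1.26 ± 0.24, adjusted p = 0.00206), all log2 with SE. For Fbln5 this call ended without E12 DKO 1, E18 DKO 3 or library 1 labelled E18 WT, with adjusted p of 0.0507 to 0.0567, with library size alone (1.67, adjusted p = 0.0597), and without both E12 WT 1 and library 3 labelled E18 WT (1.43, adjusted p = 0.0507). Without E12 WT 1 the difference was 3.33 for Eln (adjusted p = 0.0482), 1.42 for Fbln5 (adjusted p = 0.0341) and 1.98 for Fbln2 (adjusted p = 0.0303).

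Ratios of RPKM between related genes need no scaling between libraries. Fbn1:Fbn2 was 12.2, 18.1 and 6.31 in E18 DKO, against 1.22, 1.04 and 0.702 in the E18-labelled WT libraries, and 2.30, 1.66 and 2.94 in E12 DKO, against 1.70, 1.34 and 1.15 in E12 WT. Fibrillin-1 transcripts thus outnumbered those of fibrillin-2 most in E18 DKO. Fbln2:Fbln1 was 5.12, 6.03 and 2.81 in E18 DKO, against 0.143, 0.135 and 0.373 in the E18-labelled WT libraries. Fbln5:Efemp2 was 0.953, 0.516 and 1.11 in E18 DKO, against 0.146, 0.130 and 0.0876 in the E18-labelled WT libraries. E18 DKO did not overlap with the E18-labelled WT libraries or with E12 DKO in any of these ratios.

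At E12, Fbln2:Fbln1 was 0.0948, 0.107 and 0.0906 in DKO, against 1.16, 0.0993 and 0.216 in WT, and Fbln5:Efemp2 was 0.104, 0.135 and 0.167 in DKO, against 0.720, 0.0635 and 0.0626 in WT. E12 WT 1 stood far above the other E12 libraries in both, but not in Fbn1:Fbn2. Eln:Mfap2, elastin against a microfibril protein, was 2.85, 1.05 and 2.93 in E18 DKO, against 0.0139, 0.142 and 0.119 in the E18-labelled WT libraries. It was 0.0547, 0.0841 and 0.0394 in E12 DKO, against 1.78, 0.0257 and 0.0430 in E12 WT. For all 4 ratios, exact two-sided permutation tests of log2 ratios gave p = 0.1 at E18 and between stages in DKO, the smallest that 3 against 3 allows (adjusted p = 0.222 over 20 such tests, of 5 ratios in 4 comparisons). Eln:Fbn1, the other ratio tested, overlapped between the E18 groups (exact permutation p = 0.2, adjusted p = 0.286).

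**Figure D4:**
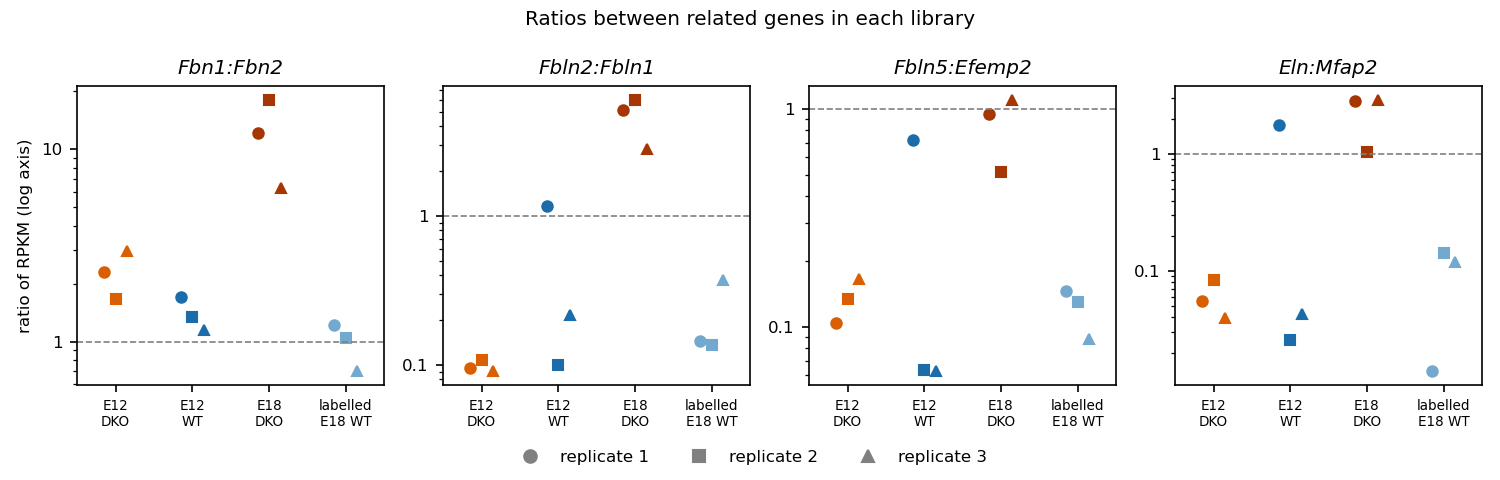
Ratio of RPKM (log axis, a separate scale for each panel) of 4 gene pairs in 12 libraries, dashed line at equal levels, symbols for replicates. E18 DKO lies above the E18-labelled WT libraries and E12 DKO in all 4 panels, with Fbn1:Fbn2 at 6.31 to 18.1 in E18 DKO.

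Genes that crosslink elastin and microfibrils had 3 of 7 called higher and 0 lower in E18 DKO against the E18-labelled WT libraries. For this and the lists that follow, 20.5% of all tested genes were called higher and 21.8% lower, and with library size alone 13.1% and 33.1%. Tgm2, a transglutaminase that crosslinks microfibril proteins, had 992, 889 and 628 CPM in E18 DKO, against 136, 127 and 96.0 CPM in the E18-labelled WT libraries (log2 2.80 ± 0.30, adjusted p = 0.000133). Lox, the lysyl oxidase of elastin and collagen, had 389, 351 and 361 CPM in E18 DKO, against 129, 170 and 225 CPM in the E18-labelled WT libraries (log2 1.07 ± 0.28, adjusted p = 0.00997). Both were above without overlap. Loxl4, another member of that enzyme family, was also called (log2 1.27 ± 0.45, adjusted p = 0.0389), but not with library size alone (adjusted p = 0.0998). Nor was it when any 1 of 7 libraries was left out, namely replicates 1, 2 and 3 of E12 DKO, 1 and 2 of E18 DKO, and 1 and 3 of those labelled E18 WT, with adjusted p of 0.0519 to 0.147.

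Of the 4 latent TGF-beta binding proteins, which tether TGF-beta to microfibrils, 2 were called higher and 0 lower. Ltbp4, which also helps fibulin-5 in elastin assembly, had 126, 79.9 and 116 CPM in E18 DKO, against 9.54, 17.3 and 26.8 CPM in the E18-labelled WT libraries (log2 2.59 ± 0.52, adjusted p = 0.0028). Ltbp1 had 168, 186 and 132 CPM in E18 DKO, against 60.9, 68.3 and 111 CPM in the E18-labelled WT libraries (log2 1.02 ± 0.27, adjusted p = 0.0119). The Ltbp1 call ended with library size alone (adjusted p = 0.0578) and without library 1 (adjusted p = 0.0526) or 2 (adjusted p = 0.0504) labelled E18 WT. Ltbp3 had a log2 fold change of 1.08 ± 0.41 (adjusted p = 0.0522).

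Among 11 fibrillin-binding ADAMTS and ADAMTS-like proteins, 3 were called higher and 5 lower. Adamts17, a protease tied to microfibril disorders in humans, had 0.385, 0.640 and 0.708 CPM in E18 DKO, against 9.31, 15.8 and 31.5 CPM in the E18-labelled WT libraries (log2 -5.01 ± 0.70, adjusted p = 0.000449). Thsd4, which encodes ADAMTSL6 and promotes fibrillin-1 assembly, had 5.06, 1.62 and 5.77 CPM in E18 DKO, against 13.2, 19.6 and 26.3 CPM in the E18-labelled WT libraries (log2 -2.25 ± 0.41, adjusted p = 0.00156). For both genes the groups did not overlap. Papln, for papilin, had 12.2, 14.6 and 7.84 CPM in E18 DKO, against 48.7, 52.5 and 20.8 CPM in the E18-labelled WT libraries (log2 -1.82 ± 0.35, adjusted p = 0.00218).

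Among 10 other fibulins, EMILINs and microfibril-associated proteins, 2 were called higher and 3 lower. Mfap4, a glycoprotein of elastic fibres, had 6.49, 3.67 and 16.6 CPM in E18 DKO, against 26.8, 29.4 and 65.5 CPM in the E18-labelled WT libraries (log2 -2.19 ± 0.53, adjusted p = 0.00739). Mmrn1, the multimerin of platelets and endothelium, was low throughout, at 0.128 to 0.490 CPM in E18 DKO, against 1.47 to 2.17 CPM in the E18-labelled WT libraries (log2 -2.62 ± 0.54, adjusted p = 0.003). Mfap1a, despite its name a splicing factor, was higher (log2 0.60 ± 0.15, adjusted p = 0.0075) but has a near-identical copy, Mfap1b, and missed the threshold with library size alone (adjusted p = 0.262).

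Of 12 receptors and processing enzymes 5 were called higher and 0 lower, and with library size alone 2 and 0 were. Furin, the convertase that cuts profibrillin, had 295, 344 and 307 CPM in E18 DKO, against 119, 146 and 77.5 CPM in the E18-labelled WT libraries (log2 1.47 ± 0.38, adjusted p = 0.00959). Itgb8, a subunit of an integrin that activates latent TGF-beta, had 16.4, 21.8 and 9.86 CPM in E18 DKO, against 1.28, 0.352 and 1.52 CPM in the E18-labelled WT libraries (log2 3.94 ± 1.19, adjusted p = 0.0206). Its call ended without library 1 (adjusted p = 0.0568) or 2 (adjusted p = 0.0732) labelled E18 WT. Itgb5, whose integrin binds several matrix proteins, was called by a small margin (log2 0.50 ± 0.13, adjusted p = 0.0121), but not with library size alone (adjusted p = 0.48) or without library 1 labelled E18 WT (adjusted p = 0.0587).

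Of 18 elastin-degrading proteases and their inhibitors 15 were tested, with 5 called higher and 1 lower, and 3 and 1 with library size alone. Ctss, for the elastin-degrading cathepsin S, had 39.9, 34.1 and 50.9 CPM in E18 DKO, against 11.3, 7.47 and 20.9 CPM in the E18-labelled WT libraries (log2 1.66 ± 0.36, adjusted p = 0.00435). Cst3, for the cathepsin inhibitor cystatin C, had 245, 285 and 408 CPM in E18 DKO, against 114, 111 and 122 CPM in the E18-labelled WT libraries (log2 1.43 ± 0.23, adjusted p = 0.000753). A protease and its inhibitor were thus both higher. Slpi, an inhibitor of neutrophil elastase, had 9.07, 24.6 and 9.53 CPM in E18 DKO, against 0.226, 0.0293 and 0.492 CPM in the E18-labelled WT libraries (log2 5.89 ± 1.09, adjusted p = 0.00173). The 7 macrophage markers, cells that also make cathepsin S, summed to 840 to 1240 CPM in E18 DKO, against 332 to 447 CPM in the E18-labelled WT libraries, with 4 called higher and 2 lower, and their part was not tested.

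At E12, 0 genes of these 6 lists were called by edgeR's quasi-likelihood test between DKO and WT. The counts at an unadjusted p under 0.05 were 1 of 7 crosslinking enzymes, 1 of 4 latent TGF-beta binding proteins, 4 of 10 other fibulins and EMILINs, 4 of 11 ADAMTS-type proteins, 0 of 12 receptors and 6 of 15 proteases and inhibitors, where 24.3% of all genes had one. By DESeq2, 2 genes of these lists were called higher and 7 lower, where 4.1% of all genes were called higher and 7.38% lower. Between stages in DKO, crosslinking enzymes had 2 called higher and 1 lower at E18 against E12, and latent TGF-beta binding proteins 3 and 0. Proteases and inhibitors had 8 and 1, and receptors and processing enzymes 5 and 0. ADAMTS-type proteins had 4 and 5, and other fibulins and EMILINs 2 and 2. Of all tested genes, 23.2% were called higher and 22.8% lower there. Without E12 WT 1, the protease and inhibitor list had 9 called higher and 1 lower in E18 DKO against the E18-labelled WT libraries, where 24.8% of all genes were called higher and 25.7% lower.

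**Figure D5:**
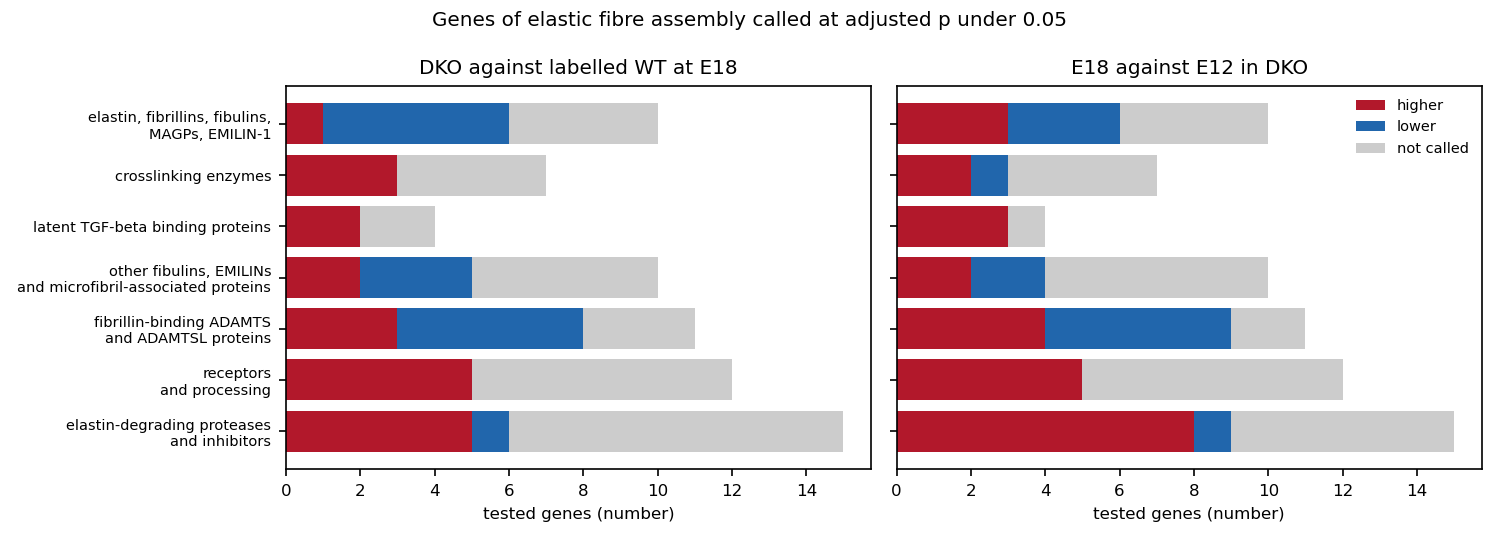
Number of tested genes (x axis) called higher, called lower or not called at an adjusted p under 0.05, for the 10 genes and 6 related lists (rows) in 2 comparisons that share the E18 DKO libraries. Crosslinking enzymes had 3 of 7 higher and 0 lower in E18 DKO against the E18-labelled WT libraries.

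Genes whose level followed that of Eln most closely over the 12 libraries were ranked by Pearson r of log2(CPM + 1) among 11219 genes. The first 5 were Abca7, a lipid transporter (r = 0.974), Olfr78, a receptor of the olfactory family (r = 0.970), Rasa4, a Ras GTPase-activating protein (r = 0.965), Aoc3, an amine oxidase (r = 0.964), and Cd44, the hyaluronan receptor (r = 0.961). Myh11 was ninth (r = 0.950). Of other smooth muscle markers, Tagln was at rank 30 (r = 0.923) and Acta2 at rank 3344 (r = 0.492). Among elastic fibre genes Fbln2 (r = 0.915) and Fbln5 (r = 0.895) were nearest, Fbn1 had r = 0.54, and Fbln1 had the lowest, r = -0.67. Aoc3 had 27.5, 12.7 and 39.2 CPM in E18 DKO, against 0.339, 3.22 and 7.47 CPM in the E18-labelled WT libraries, and 0.690, 0.983 and 0.249 CPM in E12 DKO, against 24.0, 0.178 and 0.471 CPM in E12 WT. As for Eln, the high libraries were those of E18 DKO and E12 WT 1. The points are libraries of 4 groups that share genotype, stage and cell make-up, so these values are descriptions.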

How the data were processed

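Fetal membrane RNA was sequenced with a stranded mRNA kit, per the labels' protocols. The submitters' processing notes name Trimmomatic 0.36, STAR 2.4.2a, Subread 1.5.0 with its featureCounts, and build GRCm38. The deposited values are raw counts per gene of Ensembl release 86, with no normalization, counted by featureCounts 1.5.0 with strand option 2, per the file headers. Gene lengths and coordinates are those of the deposited files. Counts of 11 libraries matched between the sample files and the series table, and those of E12 DKO 1 come from the series table only.

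Groups follow the labels. The 10 genes, the 6 related lists, the marker lists and the tests were chosen with earlier results of these data known. Genes passing filterByExpr (18153) were fitted in 1 model with a mean per group over all 12 libraries (edgeR 4.0.16, R 4.3.3, TMM factors, common biological coefficient of variation 0.373, residual degrees of freedom 8). Quasi-likelihood p-values were adjusted by Benjamini-Hochberg across these genes and called under 0.05. SE is log2 fold change over the root of F, without sign. At these depths (19967593 to 33065424 counts) the genes with few counts, such as Mfap5, are the least precise. Named genes were the 10, Bgn, Dcn, up to 3 genes per list with the lowest adjusted p at E18 (1 in other comparisons), and the 5 nearest Eln by r with a mean of at least 5 CPM. Other settings tried were size factors of DESeq2, library size alone, DESeq2 1.42.0, no filter, 1 CPM in at least 3 libraries, the replicate number as a block, only the groups compared, and leaving out each library or both E12 WT 1 and library 3 labelled E18 WT. The steps were tested on simulated data in which 100 genes changed 2-fold and 100 changed 4-fold, among 18153. There 2% to 10% of 2-fold changes and 46% to 52% of 4-fold changes were called. A gene that was not called may therefore still differ. Far more genes were called at E18 and between stages in DKO than changed in the simulation, so these rates do not describe those comparisons. Figures used matplotlib 3.10.9.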

Additional observations from a re-analysis of the deposited data

Results flagged for a closer look

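The genotype effect (DKO against WT) differed between stages for 26 named genes, by the test of the difference itself (effect at E18 minus effect at E12, log2, quasi-likelihood test of edgeR, Benjamini-Hochberg adjusted p, 3 libraries per group). Among the elastic fibre genes it was 5.45 for Eln (adjusted p = 0.0191), 2.72 for Fbln2 (adjusted p = 0.0167) and 2.39 for Fbln5 (adjusted p = 0.0229). It was -3.21 for Fbln1 (adjusted p = 0.00164), -2.52 for Fbn2 (adjusted p = 0.0122) and -1.26 for Emilin1 (adjusted p = 0.00206). In the related lists it was 3.14 for Tgm2 (adjusted p = 0.000356), 4.31 for Ltbp4 (adjusted p = 0.0012), 6.40 for Itgb8 (adjusted p = 0.0102) and 2.29 for Cst3 (adjusted p = 0.00046). It was -3.84 for Mmrn1 (adjusted p = 0.00214) and -3.41 for Adamts6 (adjusted p = 0.000949). The other positive values were 9.55 for Slpi, 1.84 for Ltbp3, 1.65 for Furin, 1.61 for Ctss, 1.42 for Lox, 1.32 for Loxl3, 1.31 for Ltbp1, 1.29 for Bgn, 0.79 for Mfap1a and 0.60 for Itgb5, and the other negative ones were -7.82 for Emilin3, -4.74 for Adamts17, -2.78 for Papln and -1.97 for Thsd4. Of all tested genes, 21.6% had a positive and 20.3% a negative difference called. Genes of the related lists were named for their low adjusted p, in part in this same test. The 26 therefore cannot be set against these shares. The WT libraries on which both effects rest include those labelled E18 WT, with 74.8% to 87.8% embryonic beta-globin, and E12 WT 1, with 14.9%. Without E12 WT 1 all 26 were still called, with the Eln difference at 3.33, Fbln2 at 1.98 and Fbln5 at 1.42, and without both E12 WT 1 and library 3 labelled E18 WT 25 were, with Fbln5 at 1.43 (adjusted p = 0.0507). With library size alone 16 of the 26 were called. The 10 that missed the threshold were Fbln5, Bgn, Loxl3, Lox, Ltbp1, Ltbp3, Mfap1a, Furin, Itgb5 and Ctss, and Itgb5 was at -0.060.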

How the results depend on the processing

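The calls at E18 for Fbn2, Fbln1 and Emilin1 stood under all alternatives, and with each library left out 4 to 7 of the 10 genes were called, against 6. Between stages in DKO that range was 4 to 9, and for the difference of effects 5 to 6. The share of all genes called also moves with the library left out. At E18 it was 20.5% higher and 21.8% lower in the main fit, and 24.8% and 25.7% without E12 WT 1. In the main fit it was 23.2% and 22.8% between stages in DKO, and 21.6% and 20.3% for the difference. Shares for the other fits are not given. At E12 the count among the 10 genes was 1 by the DESeq2 Wald test (Fbln2) and 2 without both E12 WT 1 and library 3 labelled E18 WT, and it ranged from 0 to 2 with 1 library left out. Between the E18-labelled WT libraries and E12 WT it was 1 with library size alone and 1 by DESeq2 (Emilin1 in both). Whole-table calls there were 272 and 1223.

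Signs turned for values that were not called, and for the called Itgb5 difference of effects (0.60, but -0.060 with library size alone). With library size alone, the median of all genes was 0.22 (E12), -0.41 (E18), -0.65 (difference), -0.37 (stage in DKO) and 0.27 (WT between stages), and Fbn1 was at 0.19 (E12), -0.093 (E18), -0.28 (difference) and -0.28 (stage in DKO), and Fbln1 at 0.25 (E12). With 1 library left out, the E12 ranges were -0.47 to 0.66 for Fbn1, -0.34 to 0.27 for Fbln1, -1.11 to 0.23 for Fbln5 and -3.00 to 0.96 for Itgb8. Mfap5 ranged from -2.37 to 3.67 at E18 and from -0.21 to 5.52 between stages in DKO. Fbn1 ranged from -0.39 to 0.76 for the difference and -0.088 to 0.19 between stages in DKO, and Eln from -1.88 to 1.00 between the E18-labelled WT libraries and E12 WT. Without both doubted libraries the values were 0.66 (Fbn1), 0.22 (Fbln5) and 0.95 (Itgb8) at E12, -0.33 (Fbn1, difference) and 0.24 (Eln, WT between stages). The cause was not tested.

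Whole-table calls at E12 were 64, but 2085 by DESeq2, and 1 (without E12 DKO 2) to 3199 (without E12 WT 1) with 1 library left out. With only the groups compared, edgeR called 0 there, with 3358 at an unadjusted p under 0.05. Dcn at E12 then had an adjusted p of 0.0708, and 0.088 to 0.114 without an E12 DKO library. Replicate numbers were not found to pair libraries: same-numbered libraries of different groups deviated together with r over 0.1 in 4 of 18 pairs (-0.20 to 0.29). With the number as a block, whole-table calls at E12 were 5, Fbln1 at E12 was at 0.11, and the Eln difference was 4.69 (adjusted p = 0.0835).

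By CPM without length Mfap2 ranked 5 in E12 DKO and 5 in the E18-labelled WT libraries, and Emilin1 ranked 1 in E12 DKO. By Spearman's rho 3 of the 5 genes nearest Eln were named. Depth limits Mfap5, with 4 to 310 counts per library.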
